A study of Mus musculus with 4 samples.

Results

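The 10 genes described here are Slc2a1, Hk2, Pfkl, Aldoa, Tpi1, Pgk1, Eno1, Pkm, Ldha and Ldhb, which carry glucose into cells and break it down to pyruvate and lactate. They were picked out by gene symbol, from a list chosen with earlier results of these data known. They fill 11 of the 32285 gene rows of the count matrices, because Aldoa is listed under 2 identifiers, out of 32245 symbols in all. Cells came from the proximal end of mouse lower incisors, taken 15 days after birth, and were profiled singly with a 10x Genomics 3' kit that counts each captured transcript once through a unique molecular identifier (UMI). There were 2 libraries from WT mice and 2 from Din-KO mice, whose Din gene lacks exon 2 in every cell and carries a LacZ reporter. The Din-KO allele came from 1 targeted embryonic stem cell clone recombined with a germline Cre, the tissue was minced and digested with liberase and DNase, and dead cells were removed with a kit. The replicate 2 libraries carry a prefix in their library names that the replicate 1 libraries lack. The number of mice behind each library and their strain were not given in the sources used here, so p-values measure only the spread between these libraries, which may be technical.

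Glycolysis turns glucose into pyruvate in the cytosol, and lactate dehydrogenase then reduces pyruvate to lactate or runs in the opposite direction. The enzyme is a tetramer of A and B subunits, the products of Ldha and Ldhb: tetramers rich in A are typical of tissues that release lactate, and tetramers rich in B of heart and other tissues that oxidise it. In the growing incisor, pulp mesenchyme supplies odontoblasts, which secrete dentin and mineralise it, while the epithelium gives rise to the ameloblasts that secrete enamel.

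Levels are CPM, the UMIs of a gene divided by all UMIs of the same cell class and library and multiplied by 1000000. Values from all 4 libraries are given for replicate 1 first (WT, then Din-KO) and then for replicate 2 (WT, then Din-KO). Of 20502 barcodes, 11310 cells were kept, 3903, 4575, 1560 and 1272 by library, and the 4 libraries held between 32198098 and 54348039 UMIs. Clusters were computed without the members and named from markers, which gave 12 classes. Pulp-like cells numbered 2049, 2227, 239 and 172, so replicate 2 of each genotype had fewer of them than replicate 1. The deposited 3' counts of Din gave 36.4, 22.6, 28.5 and 28.3 CPM in mesenchyme-like cells. Counts per gene do not show which exon was read, so they did not check the genotype labels. Between 0 and 4 kept barcodes were shared by any pair of libraries. Cells with a Y-linked UMI and at most 1 Xist UMI made up 0%, 43.4%, 0% and 43.6% of mesenchyme-like cells, so the sex of the donors was not matched between genotypes. Of the members, Pgk1 is X-linked.

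Pulp-like cells carried more Ldhb than any other class, and odontoblast-like cells as a class carried less Ldhb and more Ldha. The odontoblast-like cluster led by Bglap and Dspp, however, had Ldha CPM below pulp-like cells in every library. That comparison was not tested, and the part of scaling in it is not known. Against pulp-like cells, Slc2a1 was higher in endothelium-like cells, Hk2 in epithelium-like, macrophage-like and neutrophil-like cells, and Pkm, Pgk1 and Aldoa in neutrophil-like cells. None of the 10 genes passed the test between Din-KO and WT, fitted without a replicate term, in any of the 8 cell groups tested.

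**Figure D1:**
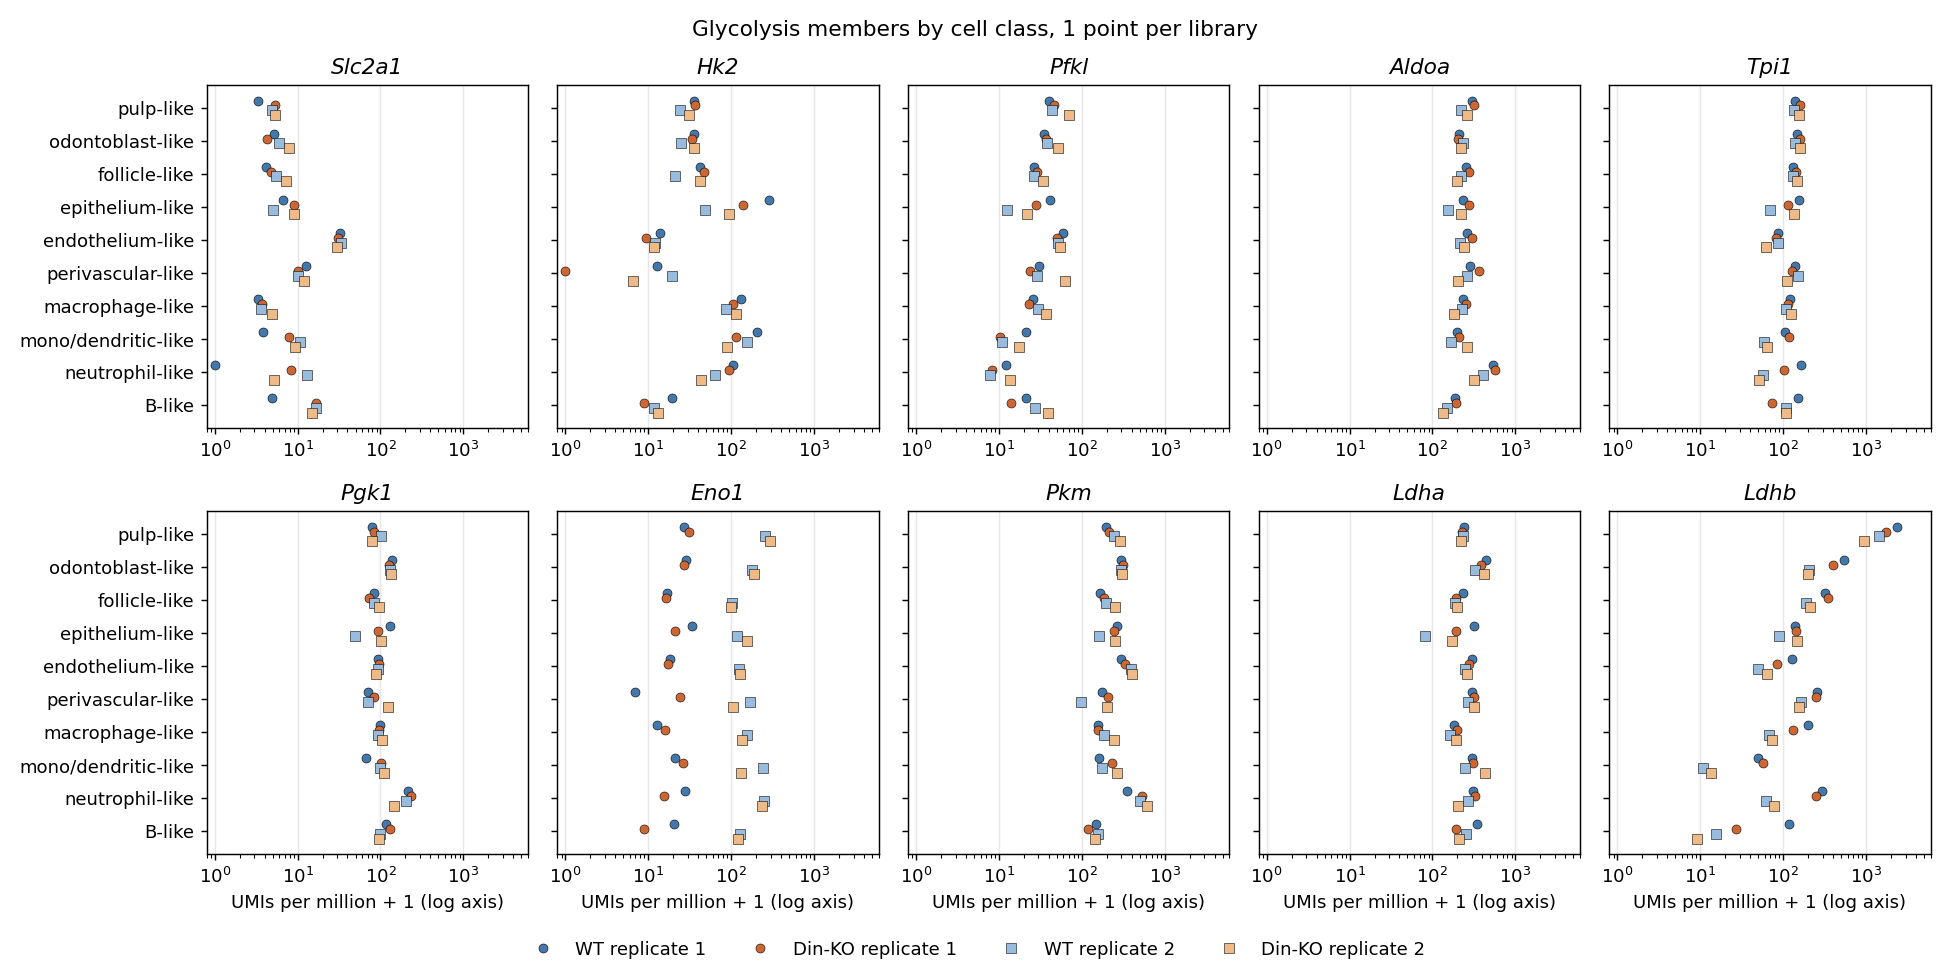
Levels of the 10 members (CPM + 1, log axis) in 10 cell classes, with 1 point for each library. Ldhb in dental pulp-like cells (933 to 2356 CPM) and Slc2a1 in endothelium-like cells (28.7 to 32.3) stood above the other classes in all 4 libraries, and Eno1 split into a low and a high pair of libraries in each class.

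Slc2a1 encodes GLUT1, the transporter that lets glucose into many cells and across vessel walls (GRCm38 chr4:119108711-119137983, plus strand, overlapped by 2 antisense genes and a microRNA). In endothelium-like cells it was at 31.2, 29.4, 32.3 and 28.7 CPM, a mean of 30.4 ± 1.65 (SD, n = 4). Every other class lay at or below 16.6 in every library, so the endothelial values did not overlap with those of any other class. Pulp-like cells were at 2.30, 4.38, 3.96 and 4.39, and odontoblast-like cells at 4.17, 3.27, 4.94 and 6.97, ranges that overlapped. At least 1 Slc2a1 UMI was found in 30.8%, 27.5%, 26.7% and 30.1% of endothelium-like cells, against 2.05%, 3.01%, 4.60% and 4.07% of pulp-like cells. With each cell thinned to 2000 UMIs the shares were 5.88% to 6.33% and 0.636% to 1.26%. On the log2 scale Slc2a1 was 3.07 (SE 0.21) higher in endothelium-like than in pulp-like cells (edgeR quasi-likelihood test, adjusted p = 4.14e-06) and 1.17 (SE 0.26) higher in epithelium-like cells (edgeR adjusted p = 0.00955, or 0.0547 without Din-KO replicate 1). These fold changes use TMM scaling, whereas the levels are scaled by the UMI total alone.

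Hk2 encodes hexokinase 2, which phosphorylates glucose in the first step of glycolysis (chr6:82725025-82774454, minus strand, overlapped by the antisense gene Gm17034). It was at 286, 137, 47.9 and 92.7 CPM in epithelium-like cells and at 131, 104, 86.0 and 114 in macrophage-like cells. Pulp-like cells held 34.5, 35.9, 23.4 and 29.6 and odontoblast-like cells 34.6, 33.1, 24.1 and 35.1, which overlapped. Endothelium-like cells were lowest of these classes, at 13, 8.32, 11.2 and 10.6. Against pulp-like cells Hk2 was 2.34 (SE 0.24) higher on the log2 scale in epithelium-like cells, 2.05 (SE 0.10) higher in macrophage-like cells and 1.63 lower in endothelium-like cells, where the log2 difference was -1.63 (SE 0.18). The edgeR adjusted p was 0.000351, 3.36e-08 and 8.32e-05.

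The epithelium-like class joined a pair of clusters whose cell numbers differed between libraries. The cluster led by Shh and Epcam held 121, 120, 33 and 55 cells, and the cluster led by the enamel matrix genes Amelx, Enam and Ambn held 24, 57, 89 and 80 cells. In the Shh cluster Hk2 was at 335, 182, 158 and 199 CPM, and in the Amelx cluster at 148, 84.7, 30.7 and 20.7. Within every library Hk2 was higher in the Shh cluster. The Amelx cluster was above pulp-like cells in Hk2 CPM in all libraries but Din-KO replicate 2. The clusters were not tested against pulp-like cells separately, and the part of scaling in that exception was not tested. The difference on the log2 scale, Amelx cluster minus Shh cluster, was -1.29 (SE 0.33, edgeR adjusted p = 0.0199, or 0.0668 without WT replicate 2). This comparison was chosen after the data had been seen. In it 4 of 10 members were called lower and 0 higher, against a background of 16.8% of all genes lower and 16.9% higher. The other 3 were Tpi1 at -0.87 (SE 0.17), Eno1 at -0.71 (SE 0.19) and Ldha at -0.60 (SE 0.16). The call for Eno1 was lost without WT replicate 2 or Din-KO replicate 2 (edgeR adjusted p = 0.108 and 0.0741), and that for Ldha without WT replicate 1, Din-KO replicate 1 or WT replicate 2 (0.0597, 0.083 and 0.0725). Scaled by library size alone the median of all genes moved to -0.69 and 9 members were called lower.

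Pfkl encodes the liver-type phosphofructokinase subunit, an enzyme of the committed step (chr10:77986947-78010083, minus strand). Endothelium-like cells were at 57.8, 49.4, 50.5 and 53.6 CPM and pulp-like cells at 39.7, 45.8, 43.2 and 69.6, which overlapped. Odontoblast-like cells were at 34.4, 36.4, 37.5 and 50.9. Follicle-like cells, at 25.9, 28.2, 25.3 and 32.9, lay below all pulp-like values, a log2 difference of -0.77 (SE 0.10, edgeR adjusted p = 0.000643).

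Aldoa encodes aldolase A, which splits the sugar bisphosphate (chr7:126795234-126800751, minus strand). It overlaps Fam57b on the opposite strand, and its other listed identifier held 5, 4, 0 and 0 UMIs in all cells kept. Neutrophil-like cells held 539, 571, 401 and 318 CPM, above the 297, 316, 223 and 263 of pulp-like cells in every library. Odontoblast-like cells were at 205, 203, 231 and 220, and B-like cells at 189, 189, 150 and 133. The log2 difference from pulp-like cells was 1.56 (SE 0.28) in neutrophil-like cells, -0.70 (SE 0.13) in B-like cells and -0.12 in odontoblast-like cells, where it was not called.

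Tpi1 encodes triosephosphate isomerase, which interconverts the products of aldolase (chr6:124810586-124814296, minus strand, overlapping Spsb2 on the opposite strand). Pulp-like cells were at 139, 159, 135 and 154 CPM, odontoblast-like cells at 148, 158, 138 and 161 and follicle-like cells at 132, 142, 132 and 147. These mesenchymal classes lay within a narrow range. Endothelium-like cells were lower, at 85.6, 81.4, 86.3 and 61.7, a log2 difference of -0.93 (SE 0.12, edgeR adjusted p = 0.000167). Odontoblast-like cells were called 0.27 (SE 0.09) higher than pulp-like cells (edgeR adjusted p = 0.0379), but the call was lost when any 1 of the 4 libraries was left out (adjusted p = 0.0729 to 0.115). Scaled by library size alone, the difference was 0.04 (edgeR adjusted p = 0.73). With cells thinned to 2000 UMIs it was 0.0005 and not called.

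Pgk1 encodes phosphoglycerate kinase 1, the first step of glycolysis that yields ATP (chrX:106187100-106203699, plus strand). Odontoblast-like cells were at 137, 126, 130 and 133 CPM, all above the 77.5, 82.8, 99.8 and 77.3 of pulp-like cells. Neutrophil-like cells were higher still, at 211, 231, 201 and 144. The other classes tested ranged from 48.2 to 129. The log2 difference from pulp-like cells was 0.87 (SE 0.10, edgeR adjusted p = 0.000392) for odontoblast-like cells, 0.47 (SE 0.11, 0.00237) for macrophage-like cells and 2.02 (SE 0.28, 6.44e-07) for neutrophil-like cells. Scaled by library size alone, the value in macrophage-like cells was 0.21 and was not called (edgeR adjusted p = 0.096).

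Eno1 encodes enolase 1, which forms phosphoenolpyruvate (chr4:150236721-150248879, plus strand). In pulp-like cells it was at 26.2, 29.9, 255 and 296 CPM, and in odontoblast-like cells at 27.3, 25.9, 180 and 187. Both replicate 2 libraries were thus far above both replicate 1 libraries, in WT as in Din-KO. Eno1b, a near-identical copy that can share reads with it, went in the opposite direction, with 34.1, 23.6, 3.96 and 3.29 in pulp-like cells. Its share of the sum of both genes was 56.5%, 44.1%, 1.53% and 1.10%. The sum itself was still 60.3, 53.6, 259 and 299, so the libraries differed in the sum as well. Over 7 classes and both genotypes the Eno1 shift from replicate 1 to replicate 2 was 1.77 to 3.76 on the log2 scale, while the other 9 members shifted by at most 0.89 in pulp-like cells. They shifted more in some smaller classes, such as Ldhb by -2.90 in WT B-like cells and Hk2 by -2.56 in WT epithelium-like cells. Of 5639 genes at 10 CPM or more on average in those classes, 5 were higher by over 2 in all 14 values (Dynlt1c, Gm10260, Gstp1, Rpl10 and Sap18) and 4 were lower (Rpl10-ps3, Rpl9-ps6, Rps27rt and Wdr89), names given after their values were seen. All libraries had the same stated Cell Ranger version and the same gene list. The part of read assignment in this shift was not tested.

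**Figure D2:**
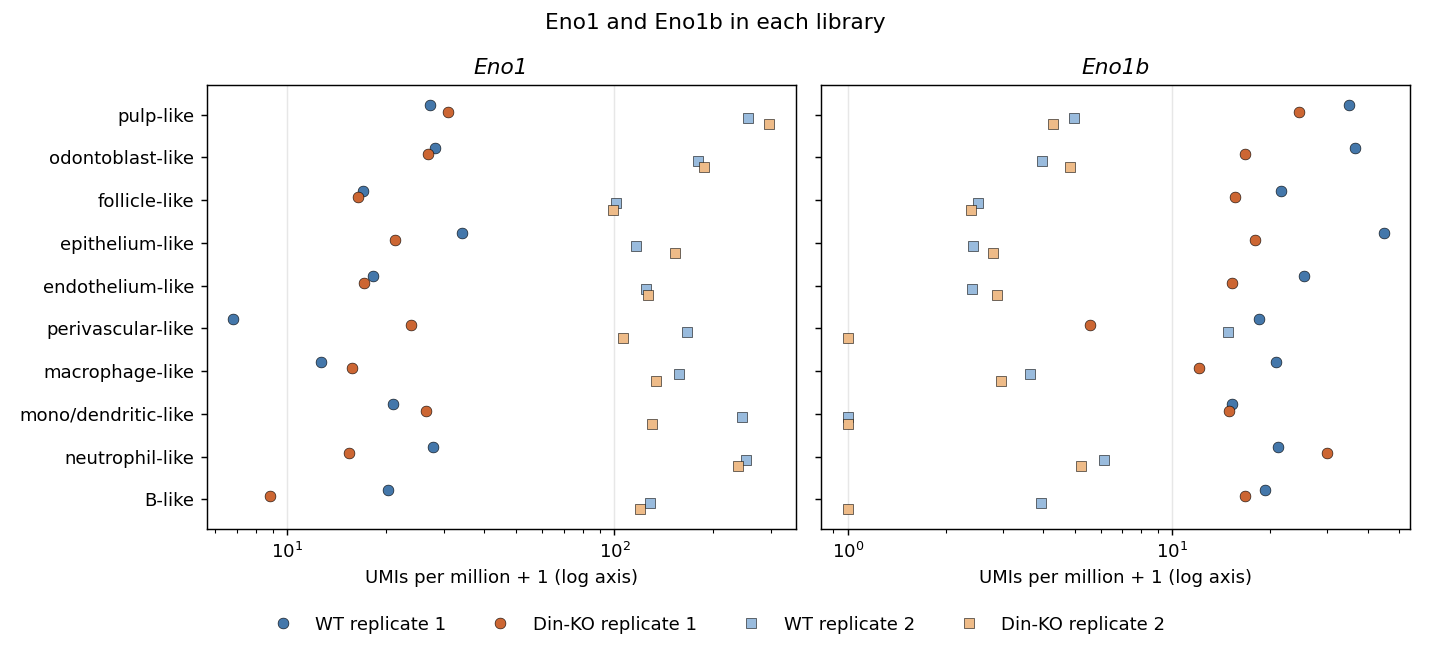
Eno1 and its near-identical copy Eno1b by cell class and library (CPM + 1, log axis), with 1 point for each library. In pulp-like cells Eno1 was at 26.2 and 29.9 in the replicate 1 libraries and at 255 and 296 in the replicate 2 libraries, while Eno1b was at 34.1 and 23.6 against 3.96 and 3.29.

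Pkm encodes the muscle pyruvate kinase, which forms pyruvate (chr9:59656368-59679375, plus strand). Its splice forms cannot be told apart in these counts. Pulp-like cells held 194, 213, 241 and 291 CPM and odontoblast-like cells 294, 310, 293 and 308, which did not overlap. Endothelium-like cells were at 296, 329, 387 and 397, and neutrophil-like cells at 355, 527, 500 and 605. The log2 difference from pulp-like cells was 0.61 (SE 0.09, edgeR adjusted p = 0.00199) in odontoblast-like cells, 0.56 (SE 0.08, 0.000345) in endothelium-like cells and 1.88 (SE 0.27, 1.43e-06) in neutrophil-like cells.

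Ldha, which encodes the A subunit of lactate dehydrogenase (chr7:46841475-46855627, plus strand), was at 441, 381, 326 and 418 CPM in odontoblast-like cells and at 241, 226, 232 and 222 in pulp-like cells. The classes did not overlap, and Ldha was higher in odontoblast-like cells of all 4 libraries by 0.99 on the log2 scale (SE 0.09, edgeR adjusted p = 0.000191). Follicle-like cells held 231, 190, 185 and 196 and endothelium-like cells 302, 272, 246 and 258. Macrophage-like cells were at 180, 196, 162 and 193 and B-like cells at 348, 191, 253 and 210. Neutrophil-like cells were at 310, 325, 270 and 203 and epithelium-like cells at 315, 192, 81.2 and 171. In the main fit only odontoblast-like and neutrophil-like cells passed the test for Ldha against pulp-like cells (1.05, SE 0.28, edgeR adjusted p = 0.00251 in the latter). Endothelium-like cells, at 0.20, were called by DESeq2 (adjusted p = 0.0416). They were also called by edgeR with library size alone (adjusted p = 0.0375) and at clustering resolution 0.5 (0.0354). In neutrophil-like cells the call was lost when scaled by library size alone (0.16, edgeR adjusted p = 0.609) and when thinned to 2000 UMIs per cell (0.73, 0.0956), and the Din-KO replicate 2 level of 203 lay below the 222 of pulp-like cells.

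Ldhb encodes the B subunit (chr6:142490249-142507957, minus strand). In pulp-like cells it was at 2356, 1735, 1434 and 933 CPM, a mean of 1614 ± 595 (SD, n = 4). It contributed the most UMIs of the 10 members in every library, whose summed level was 3407, 2846, 2690 and 2340. Odontoblast-like cells held 535, 398, 207 and 201, follicle-like cells 318, 348, 188 and 208, and glia-like cells 509, 567, 407 and 629. Epithelium-like cells were at 137, 143, 87.5 and 145, endothelium-like cells at 128, 82.4, 49.1 and 63.6 and B-like cells at 116, 26.2, 14.7 and 8.07. Pulp-like cells were above every other class in every library. The log2 difference from pulp-like cells was -2.09 (SE 0.11, edgeR adjusted p = 2.27e-05) in odontoblast-like, -2.56 (SE 0.14, 7.63e-06) in follicle-like, -3.21 (SE 0.29, 0.000189) in epithelium-like, -4.36 (SE 0.15, 9.15e-08) in endothelium-like and -5.46 (SE 0.30, 1.15e-09) in B-like cells. Over all cells kept, Ldhb was at 1148, 748, 289 and 236, the same order of libraries as in B-like cells. Free RNA in the droplets was not removed, and its part in the low Ldhb levels of non-mesenchymal classes was not tested.

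Most pulp-like cells had Ldhb UMIs. The share with at least 1 was 98.2% (exact 95% interval 97.5 to 98.7), 93.5% (92.4 to 94.5), 97.1% (94.1 to 98.8) and 93.0% (88.1 to 96.3), at median depths of 8633, 6862, 10584 and 8993.5 UMIs per cell. In B-like cells, taken here as the background, it was 20.7%, 8.08%, 6.90% and 3.81% at medians of 3063.5, 2579, 3550 and 3427. Thinned to 2000 UMIs per cell, the shares were 91.2%, 82.7%, 81.1% and 72.8% in pulp-like cells against 13%, 4.44%, 4.57% and 1.94% in B-like cells. Thinned odontoblast-like cells had Ldhb in 55%, 53.8%, 30.7% and 35.9% and Ldha in 49.8%, 40.3%, 39.1% and 48.4%, against 35.5%, 33.7%, 31.1% and 33.7% for Ldha in pulp-like cells. The thinning left out between 1 and 9 cells of each of these classes and libraries. Intervals cover counting error only.

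The 250 bases before a RefSeq start are printed for Ldha, Ldhb and Pgk1, the 3 members that differed most between odontoblast-like and pulp-like cells (RefSeq, GRCm38.p6, 5' to 3' on the gene's strand). Capitals mark the letters ACGTG or GCGTG on either strand, the core that hypoxia-inducible factors are known to bind. The windows are chr7:46845554-46845803 (plus strand) for Ldha, chr6:142507958-142508207 (minus strand) for Ldhb and chrX:106186850-106187099 (plus strand) for Pgk1.
Ldha: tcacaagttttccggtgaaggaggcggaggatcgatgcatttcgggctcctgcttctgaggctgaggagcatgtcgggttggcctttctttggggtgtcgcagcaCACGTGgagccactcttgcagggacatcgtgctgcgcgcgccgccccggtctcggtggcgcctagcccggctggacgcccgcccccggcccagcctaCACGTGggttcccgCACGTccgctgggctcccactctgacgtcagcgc
Ldhb: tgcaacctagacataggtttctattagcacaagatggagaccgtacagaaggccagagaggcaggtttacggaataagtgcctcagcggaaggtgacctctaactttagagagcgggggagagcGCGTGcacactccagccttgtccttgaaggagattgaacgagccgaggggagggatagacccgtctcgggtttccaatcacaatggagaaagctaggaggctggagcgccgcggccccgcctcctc
Pgk1: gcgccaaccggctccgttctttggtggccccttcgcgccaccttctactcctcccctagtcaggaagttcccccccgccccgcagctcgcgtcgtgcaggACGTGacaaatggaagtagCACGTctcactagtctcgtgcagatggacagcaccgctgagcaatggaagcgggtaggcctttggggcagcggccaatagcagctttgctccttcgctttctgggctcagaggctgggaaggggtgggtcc
The Ldha window held 5 matches, counting each of its 2 palindromic copies once on each strand, the Pgk1 window 2 and the Ldhb window 1. Of 32851 such windows in the table, 38.6% held at least 1 match, 16.7% at least 2 and 6.58% at least 3. Of the 16 windows of the members, 13 held a match (81.2%), and Tpi1 was the member with none. Some windows of Aldoa and of Eno1 overlap and share the same matches. The windows were not matched for base content, so the shares cannot be read as an enrichment. The other Ldha window in the table held 1 match. A match describes the letters and is not a measured binding site.

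The ratio of Ldha to Ldhb UMIs needs no scaling between libraries. Capture can differ between the genes, so the ratio was compared only across cells. It was 0.102, 0.130, 0.162 and 0.238 in pulp-like cells, so the counted UMIs of Ldhb outnumbered those of Ldha in all 4 libraries. In odontoblast-like cells it was 0.824, 0.959, 1.57 and 2.08, which was 8.43 times the pulp ratio (log2 difference 3.07, SD 0.17 over 4 libraries). Follicle-like cells followed at 0.726, 0.546, 0.986 and 0.940. Epithelium-like cells were at 2.30, 1.34, 0.928 and 1.18, and macrophage-like cells at 0.917, 1.48, 2.43 and 2.64. Endothelium-like cells had more counted UMIs of Ldha than of Ldhb throughout, at 2.36, 3.30, 5.01 and 4.06. B-like cells had the highest ratio of the 6 classes tested, at 2.98, 7.30, 17.2 and 26.0. The B-like ratios rested on 121, 10, 15 and 4 Ldhb UMIs, and the part of free RNA in these was not tested. All 6 classes lay above pulp-like cells in 4 of 4 libraries (exact sign-flip permutation test, two-sided p = 0.125 and adjusted p = 0.125 each, the smallest that 4 pairs allow, so the test cannot pass 0.05). Glia-like cells, with 14 to 45 cells a library, were nearest to pulp at 0.308, 0.255, 0.594 and 0.329.

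**Figure D3:**
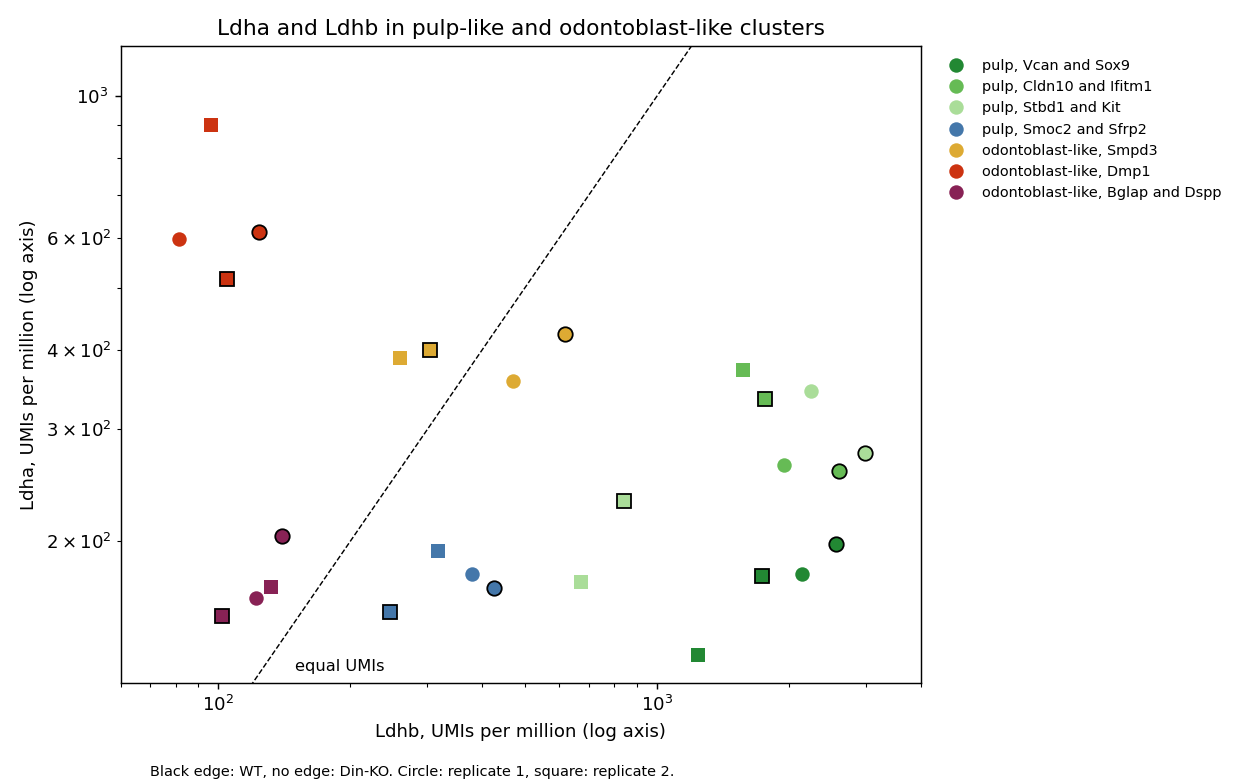
Ldha against Ldhb (CPM, log axes) in pulp-like and odontoblast-like clusters, each point a library (black edge WT, circle replicate 1, square replicate 2); the dashed line marks equal UMIs. The pulp clusters led by Vcan and by Cldn10 and Ifitm1 lay far to the right, with 1239 to 2599 Ldhb, the Smoc2 cluster lay at 246 to 426, and the Dmp1 cluster stood above the line with 516 to 903 Ldha.

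The odontoblast-like clusters differed from each other in the lactate dehydrogenase genes and in Aldoa, and less firmly in Pgk1 and Hk2. Odontoblast-like cells fell into clusters led by Smpd3, Sgms2 and Fgf3 (236, 400, 94 and 92 cells), by Dmp1 and Col24a1 (26, 29, 21 and 18 cells), and by Bglap, Dspp and Phex (9, 16, 65 and 44 cells). The Smpd3 cluster held most odontoblast-like cells of every library. Tac1 also led it, and both Tac1 and Fgf3 were on the pulp marker list. Its mean marker score was 1.007 for odontoblast and 0.7504 for pulp, so its name is the least certain of these. Smpd3 and Dmp1 serve mineralisation, and Dspp encodes the main non-collagen protein of dentin. The makeup of the class thus differed between replicates, with more of the Bglap cluster in replicate 2. The following contrasts between clusters were chosen after the data had been seen.

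As a class, odontoblast-like cells had 4 of 10 members higher and 1 lower than pulp-like cells, against 23.2% and 23.8% of all genes. Higher were Ldha, Pgk1, Pkm and Tpi1, and lower was Ldhb, though the call for Tpi1 was lost when any 1 library was left out. The Smpd3 cluster had 4 members higher and 2 lower than pulp-like cells, against 28.4% and 28.5% of all genes. Ldha (0.95, SE 0.07), Pgk1 (0.81, SE 0.08), Pkm (0.68, SE 0.08) and Tpi1 (0.41, SE 0.09) rose on the log2 scale, while Ldhb fell by 1.79 (SE 0.07) and Aldoa by 0.66 (SE 0.12), with edgeR adjusted p between 2.37e-08 and 0.00225. In this cluster Aldoa was at 153, 153, 172 and 135 CPM, below every pulp-like value.

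The Dmp1 cluster had the highest Ldha of these clusters, at 612, 597, 516 and 903 CPM, against 424, 357, 399 and 388 in the Smpd3 cluster. Its Ldhb was at 124, 81.3, 105 and 96.4, against 618, 469, 305 and 260. The ratio of Ldha to Ldhb was 4.92, 7.35, 4.93 and 9.36 in the Dmp1 cluster and 0.686, 0.762, 1.31 and 1.49 in the Smpd3 cluster, so the clusters did not overlap. Aldoa was at 514, 445, 352 and 434 and Pgk1 at 168, 180, 183 and 301 in the Dmp1 cluster. In the 3 libraries with 20 cells or more of both clusters, 5 of 10 members were higher and 1 lower in the Dmp1 cluster, against 18.3% and 18.7% of all genes. Aldoa was higher by 1.55 (SE 0.17, edgeR adjusted p = 3.14e-05), Ldha by 0.66 (SE 0.15, 0.00448), Pgk1 by 0.52 (SE 0.15, 0.0171), Hk2 by 0.72 (SE 0.24, 0.0327) and Eno1 by 0.52 (SE 0.18, 0.0394), and Ldhb fell by 2.04 (SE 0.22, 3.46e-05). Without Din-KO replicate 1 only Aldoa and Ldhb kept their calls, with Ldha at an edgeR adjusted p of 0.0668 and Pgk1 at 0.145. Without WT replicate 1 Eno1 and Hk2 lost theirs (edgeR adjusted p = 0.0993 and 0.227). DESeq2 did not call Pgk1, Hk2 or Eno1 (adjusted p = 0.0592, 0.17 and 0.14). Neither did edgeR scaled by library size alone (adjusted p = 0.0674, 0.0938 and 0.145). Thinned to 2000 UMIs, 7.69%, 17.2%, 9.52% and 16.7% of cells of the Dmp1 cluster had an Ldhb UMI and 73.1%, 55.2%, 42.9% and 88.9% an Ldha UMI.

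In the Bglap cluster Ldha was at 204, 163, 153 and 170 CPM and Ldhb at 140, 122, 102 and 132, with a ratio of 1.46, 1.33, 1.5 and 1.28. Its Ldha CPM lay below the pulp-like level of the same library throughout, unlike that of the odontoblast-like class as a whole. The Bglap cluster was not tested against pulp-like cells. Scaled by library size alone, the median of all genes was -0.48 in the Bglap against the Smpd3 cluster (-0.03 by TMM). It was -0.20 in the Smpd3 cluster against pulp-like cells (-0.02 by TMM). The part of scaling in the low Ldha CPM was not tested. Hk2 was at 11.6, 14.5, 8.30 and 9.65, below all values of the Smpd3 cluster (30.1 to 34.0). Both replicate 2 libraries had 20 cells of each cluster, and there 6 of 10 members were lower in the Bglap cluster than in the Smpd3 cluster and 1 was higher, against 21.6% and 22% of all genes. Hk2 fell by 1.48 (SE 0.29), Tpi1 by 0.92 (SE 0.17), Ldha by 0.85 (SE 0.14), Ldhb by 0.85 (SE 0.16), Eno1 by 0.77 (SE 0.16) and Pkm by 0.46 (SE 0.14), while Aldoa rose by 1.30 (SE 0.15), with edgeR adjusted p between 1.69e-06 and 0.0125. DESeq2 did not call Hk2 (adjusted p = 0.156) or Pkm (0.145). Aldoa was thus higher in both the Dmp1 and the Bglap cluster than in the Smpd3 cluster.

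Proliferation genes also differed between these clusters, and were low in the Dmp1 cluster, where Ldha was highest. They summed to 1455, 1382, 959 and 797 CPM in the Smpd3 cluster and 272, 94.5, 53.2 and 80.4 in the Dmp1 cluster. Their summed level was 1247, 1136, 535 and 492 CPM in odontoblast-like and 113, 123, 132 and 114 in pulp-like cells, and all 10 were lower in the Dmp1 than in the Smpd3 cluster, against 18.7% of all genes (median log2 difference -3.89). With cells holding Mki67 or Top2a removed, Ldha, Pgk1, Pkm and Ldhb kept their calls between odontoblast-like and pulp-like cells, and Tpi1 lost its call (0.11, edgeR adjusted p = 0.498).

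Pulp-like cells split into 6 clusters, and 1 of them was set apart by low Ldhb. In the cluster led by Smoc2 and Lypd1, Ldhb was at 426, 379, 246 and 317 CPM, against 2521, 2031, 1605 and 1187 in the other pulp clusters together. Tpi1 was at 242, 249, 289 and 176, against 130, 139, 113 and 144. The Smoc2 cluster thus had less Ldhb and more Tpi1 than the rest of the pulp in all 4 libraries. It had 2 of 9 members tested higher and 3 lower, against 17% and 17.3% of all genes. Ldhb fell by 2.40 (SE 0.12, edgeR adjusted p = 8.83e-08), Aldoa by 0.51 (SE 0.11, 0.0055) and Ldha by 0.47 (SE 0.10, 0.00308). Tpi1 rose by 0.85 (SE 0.14, 0.000563), and Eno1 by 0.55 (SE 0.17, 0.0279), a call lost without WT replicate 1, Din-KO replicate 1 or WT replicate 2 (edgeR adjusted p = 0.111, 0.105 and 0.0768). Its ratio of Ldha to Ldhb was 0.397, 0.468, 0.628 and 0.609, above that of pulp-like cells in 4 of 4 libraries.

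Dissociation stress genes were also high in the Smoc2 cluster. Their summed level was 1126, 3502, 4522 and 7225 CPM there and 568, 1105, 2008 and 3538 in pulp-like cells as a whole, and 7 of 9 tested were higher than in the other pulp clusters and 0 lower, against 17% and 17.3% of all genes (median log2 difference 1.70). Cells of the cluster were shallower in replicate 1, at 5436.5 and 4299 UMIs per cell at the median. The part of stress in the member levels was not tested. Thinned to 2000 UMIs per cell, Ldhb was found in 50.7%, 50.5%, 36.7% and 42.6% of its cells, against 97.5%, 96.0%, 87.1% and 83.9% in the Vcan cluster.

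The cluster led by Vcan and picked by Vcan and Sox9 had a low ratio of Ldha to Ldhb. Its Ldhb was at 2563, 2144, 1733 and 1239 CPM and its Ldha at 198, 178, 176 and 133, a ratio of 0.0774, 0.0829, 0.102 and 0.107. It had 1 of 9 members tested higher and 6 lower than the other pulp clusters, against 12.3% and 14.2% of all genes. The other pulp clusters included the low-Ldhb Smoc2 cluster, whose part in these differences was not tested. Ldhb rose by 0.48 (SE 0.08). Its CPM was higher still in the Cldn10 and Ifitm1 cluster in all libraries but Din-KO replicate 1. Hk2 fell by 0.69 (SE 0.16), Eno1 by 0.60 (SE 0.12), Aldoa by 0.58 (SE 0.11), Ldha by 0.50 (SE 0.09), Tpi1 by 0.46 (SE 0.08) and Pkm by 0.32 (SE 0.10), with edgeR adjusted p between 0.000656 and 0.0388. The call for Pkm was lost without Din-KO replicate 1 or Din-KO replicate 2 (edgeR adjusted p = 0.136 and 0.0532). At clustering resolution 0.5 the calls for Ldha, Aldoa, Pkm and Hk2 were lost (edgeR adjusted p = 0.213, 0.083, 0.567 and 0.075), and without a library factor in the fit 0 members were called. Compared directly, the Smoc2 cluster had Ldhb lower than the Vcan cluster by a log2 difference of -2.48 (SE 0.12), and Tpi1 (1.06, SE 0.13), Eno1 (0.94, SE 0.12) and Hk2 (0.74, SE 0.21) higher. That was 3 of 9 members higher and 1 lower, against 15.1% and 13.9% of all genes, in a comparison chosen after the data had been seen. The call for Hk2 was lost without Din-KO replicate 1 (edgeR adjusted p = 0.0698).

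Smaller clusters could be tested in the replicate 1 libraries alone. The cluster picked by Cldn10 and Enpp2 was led by Pdlim3, Ltbp1, Slc20a2 and Postn and held 90 and 123 cells there. It is not the larger cluster led by Cldn10 and Ifitm1. It had 3 of 10 members higher and 1 lower than the other pulp clusters, against 8.02% and 7.77% of all genes, with Ldhb at 1087 and 776 CPM (log2 difference -1.25, SE 0.21) and Aldoa at 418 and 553 (0.63, SE 0.16). Pkm (0.47) and Pfkl (0.66) were also called higher. DESeq2 did not call Aldoa, Pkm or Pfkl (adjusted p = 0.0524, 0.305 and 0.353). At resolution 0.5 the same gene pair picked another cluster, led by Cldn10. The cluster picked by Angpt4 and Gpha2 had 0 higher and 2 lower, Eno1 (-0.74, SE 0.18) and Pkm (-0.29, SE 0.09), against 4.68% and 5.62% of all genes. DESeq2 called neither (adjusted p = 0.501 and 0.85), nor did edgeR with cells thinned to 2000 UMIs (adjusted p = 0.355 and 0.425). The cluster led by Cldn10 and Ifitm1 (744, 474, 78 and 29 cells) had Ldhb at 2599, 1947, 1765 and 1576 CPM and a ratio of Ldha to Ldhb of 0.0993, 0.136, 0.189 and 0.236. The cluster led by Ifitm1, Stbd1 and Kit (231, 214, 26 and 14 cells) had Ldhb at 2979, 2250, 843 and 673 CPM, lower in both replicate 2 libraries, and a ratio of 0.0925, 0.153, 0.274 and 0.256.

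Odontoblast-like cells and the Smoc2 cluster, both low in Ldhb, were also set against each other. The log2 difference in Ldhb, odontoblast-like minus Smoc2 cluster, was 0.12 (SE 0.14, edgeR adjusted p = 0.522), while Ldha was 1.40 (SE 0.11), Pgk1 1.06 (SE 0.15) and Pkm 0.59 (SE 0.11) higher in odontoblast-like cells. Eno1 was lower (-0.58, SE 0.13) and so was Tpi1 (-0.42, SE 0.14), the latter not without WT replicate 1, Din-KO replicate 1 or WT replicate 2 (edgeR adjusted p = 0.140, 0.116 and 0.0947). These were 3 of 10 members higher and 2 lower, against 22.7% and 21.1% of all genes, in another comparison chosen after the data had been seen.

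Member counts in the other classes were also taken against pulp-like cells. Follicle-like cells had 0 of 10 members higher and 4 lower, against 21.7% and 20.6% of all genes. Besides Ldhb and Pfkl these were Eno1 (-1.18, SE 0.14) and Pkm (-0.21, SE 0.07), and Pkm lost its call without any 1 of the 4 libraries (edgeR adjusted p = 0.0616 to 0.122). Epithelium-like cells had 2 higher and 1 lower, against 20.1% and 22.8%. Endothelium-like cells had 2 higher and 4 lower, against 31.1% and 32.7%. Macrophage-like cells had 2 higher and 3 lower, against 34.2% and 36.4%. Among them Ldhb fell by 3.57 (SE 0.15), Eno1 by 0.75 (SE 0.11) and Pfkl by 0.59 (SE 0.12).

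Neutrophil-like cells were tested in 3 libraries, since Din-KO replicate 1 held 17 of them. They had 6 of 9 members tested higher and 2 lower, against 21.3% and 24.9% of all genes. Hk2 (2.19, SE 0.33), Pgk1, Pkm, Aldoa, Ldha and Eno1 (0.76, SE 0.29) were higher, and Ldhb (-2.79, SE 0.33) and Pfkl (-1.40, SE 0.46) lower. Eno1 lost its call without WT replicate 2 (edgeR adjusted p = 0.202), and Pfkl without WT replicate 2 or Din-KO replicate 2 (0.126 and 0.115). The median of all genes was -0.25 in this comparison and -1.15 when scaled by library size alone, where Ldha was at 0.16 and not called. Eno1 was at -0.12 and Tpi1 at -0.78 on that scale.

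B-like cells went the other way, with 1 of 9 members tested higher and 6 lower, against 27.7% and 38% of all genes. Hk2 fell by 1.19 (SE 0.25), Eno1 by 1.03 (SE 0.18), Pfkl by 0.95 (SE 0.21), Aldoa by 0.70 and Pkm by 0.68 (SE 0.14). Pgk1 was 0.39 (SE 0.16) higher, a call lost without WT replicate 1 or Din-KO replicate 1 (edgeR adjusted p = 0.101 and 0.0990). Within the class, the cluster led by histone and Vpreb3 genes (34, 12, 17 and 8 cells) had Ldha at 506, 290, 448 and 137 CPM. The cluster led by Ms4a1, a gene of mature B cells, was at 192, 175, 86.1 and 140, so Din-KO replicate 2 showed no rise. These clusters were not tested against each other. With cells holding Mki67 or Top2a removed, Ldha in B-like cells was lower than in pulp-like cells, by a log2 difference of -0.65 (edgeR adjusted p = 0.00154).

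**Figure D4:**
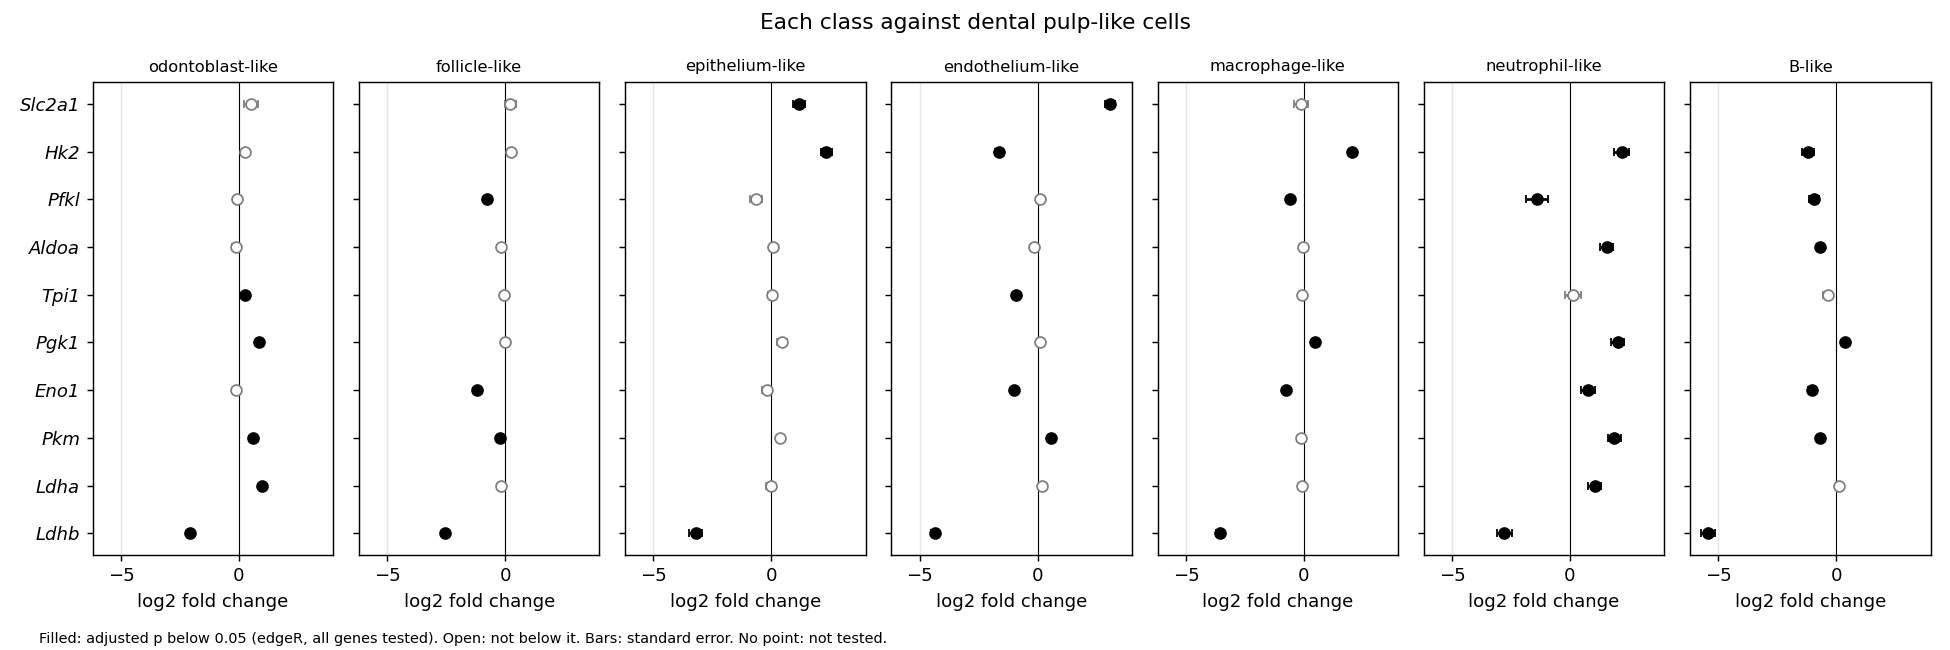
Log2 difference of each member between 7 cell classes and dental pulp-like cells (edgeR, TMM scale); filled points passed an adjusted p of 0.05 and bars are standard errors. Ldhb was lower in every class, from -2.09 in odontoblast-like to -5.46 in B-like cells, while Slc2a1 reached 3.07 in endothelium-like and Hk2 2.34 in epithelium-like cells.

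Between Din-KO and WT, 0 of 10 members were called in mesenchyme-like, pulp-like, odontoblast-like, follicle-like, epithelium-like and endothelium-like cells, and 0 of 9 tested in macrophage-like and B-like cells. Of all genes 0% were called in mesenchyme-like, 0.0146% in pulp-like, 0% in odontoblast-like, 0.00772% in follicle-like, 0% in epithelium-like, 0.0537% in endothelium-like, 0.0734% in macrophage-like and 0% in B-like cells, so few genes of any kind passed. These fits had no replicate term. In them no member reached an unadjusted p under 0.05 by edgeR in any of the 8 groups, in which 87 to 347 genes did, and DESeq2 called 0 members in each. With a replicate block Ldhb was called in mesenchyme-like cells, as given with its limits under the processing alternatives.

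Ldhb in pulp-like cells was lower in Din-KO than in WT within each replicate number, by log2 differences of -0.44 and -0.62. The WT library of replicate 2 was, however, below the Din-KO library of replicate 1, so the genotypes overlapped. The fitted difference was -0.51 (SE 0.41, edgeR adjusted p = 1, unadjusted 0.253). The low-Ldhb Smoc2 cluster made up 10.1% and 12.6% of pulp-like cells in WT and 25.4% and 32.0% in Din-KO. Within that cluster the log2 differences in Ldhb were -0.17 and 0.36, and within the Vcan cluster -0.26 and -0.48. They were -0.42 and -0.16 in the Cldn10 and Ifitm1 cluster and -0.405 and -0.325 in the Stbd1 and Kit cluster. The cluster picked by Angpt4 and Gpha2 was at 0.008 and -0.099, and that picked by Cldn10 and Enpp2 at -0.49 and -1.13. In replicate 2 these held 9 and 8 cells, and 3 and 8 cells (WT, then Din-KO). The part of cluster makeup in the pulp-like difference was not tested.

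Ldha differed less between genotypes, by -0.08 (SE 0.23) in pulp-like and 0.04 (SE 0.26) in odontoblast-like cells. Pgk1 was at -0.13 (SE 0.23), Pkm at 0.22 (SE 0.25), Aldoa at 0.15 (SE 0.29) and Hk2 at 0.16 (SE 0.30) in pulp-like cells. Tpi1, Slc2a1 and Pfkl did not overlap between genotypes in pulp-like cells, against 22.6% of all genes tested, and none of the 3 passed the test (adjusted p = 1 each by edgeR). Eno1, split by replicate, had a standard error of 1.14. Its difference was called at 2.49 without WT replicate 2 (edgeR adjusted p = 4.35e-08) and at -2.10 without Din-KO replicate 2 (0.00523), so the sign of the call depended on the library left out. In macrophage-like cells it was called at -2.26 without Din-KO replicate 2 (0.00488).

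The ratio of Ldha to Ldhb did not separate the genotypes in any of 7 classes (exact permutation test of 2 libraries against 2, two-sided p = 0.667 to 1 and adjusted p = 0.933 to 1, where the smallest possible p is 0.333). In pulp-like cells it was 0.102 and 0.162 in WT and 0.130 and 0.238 in Din-KO. None of the genes of 6 further lists (the rest of glycolysis, pentose phosphate, respiration, hypoxia, stress and proliferation) was called between genotypes in any of the 8 groups. Stress genes had a median log2 difference of 0.83 in pulp-like cells. A test of whether the difference between classes varied with genotype called 0 members, with the smallest unadjusted edgeR p at 0.00347 for Ldhb in follicle-like against pulp-like cells (0.62, SE 0.14, adjusted p = 1).

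**Figure D5:**
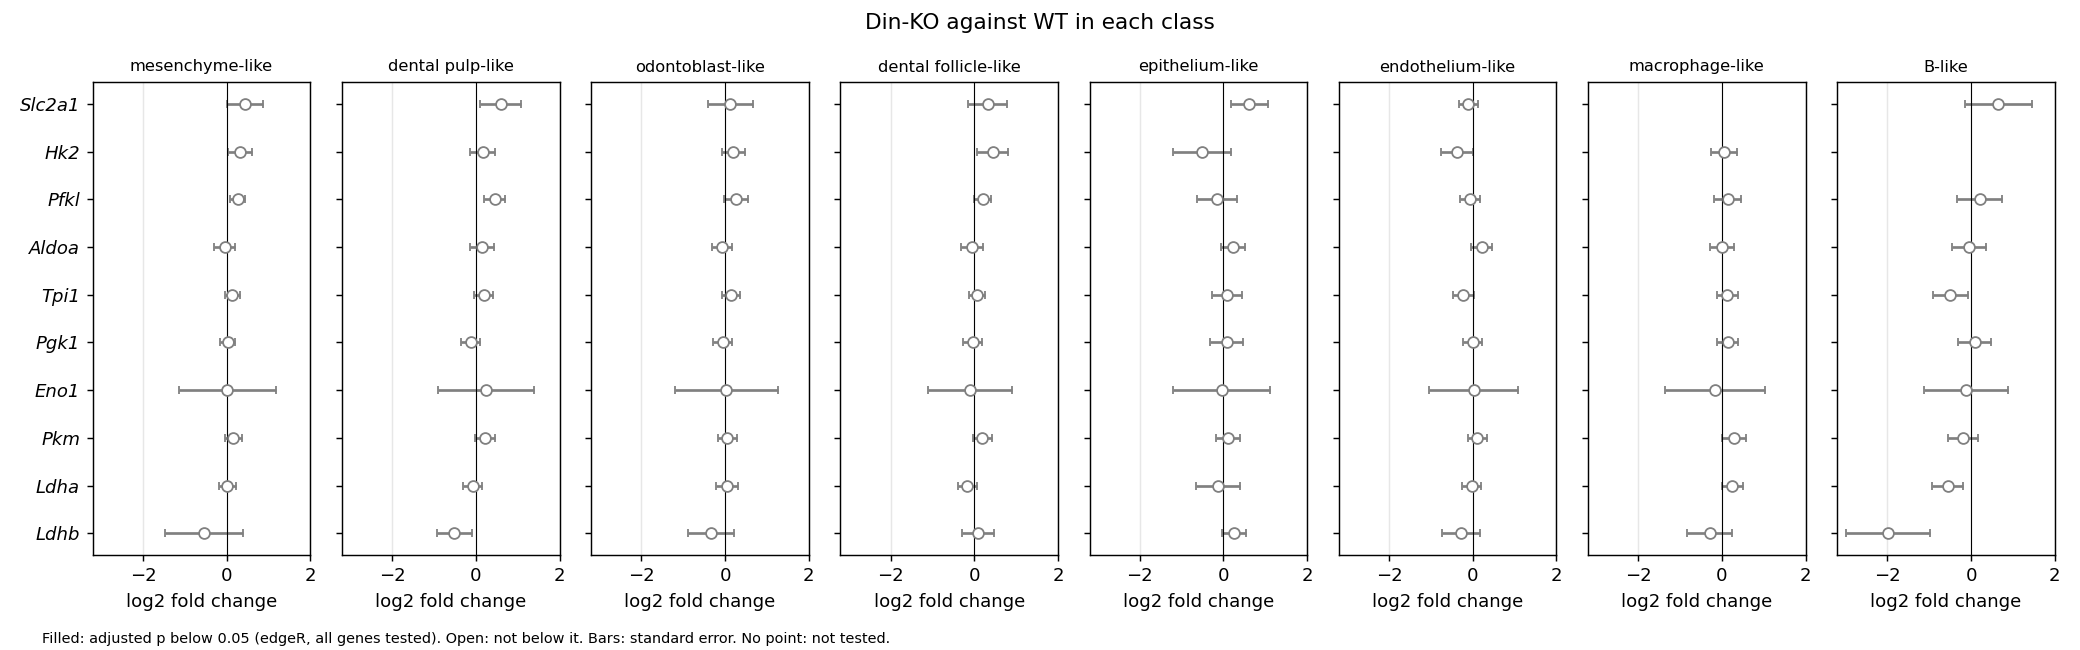
Log2 difference between Din-KO and WT for each member in 8 cell groups (edgeR, 2 libraries against 2; bars are standard errors). All points are open, since none passed an adjusted p of 0.05, and the Eno1 bars are wide, with a standard error of 1.14 in pulp-like cells.

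The rest of the pathway was read from a list of 36 further genes of glycolysis and glucose handling. Between odontoblast-like and pulp-like cells 27 were tested, of which 8 were higher and 5 lower, against 23.2% and 23.8% of all genes (median log2 difference -0.11, against -0.01 over all genes). Pgam2, a phosphoglycerate mutase, was higher by 2.82 (SE 0.25), Slc16a3, the lactate exporter MCT4, by 2.44 (SE 0.30) and Pfkfb3, which makes the activator of phosphofructokinase, by 2.24 (SE 0.21). Slc16a3 was at 55, 41.6, 31.3 and 70.1 CPM in the Dmp1 cluster and at 1.81, 3.08, 5.40 and 2.74 in pulp-like cells. Between the Dmp1 and the Smpd3 cluster 5 of 20 tested were higher and 0 lower, against 18.3% and 18.7% of all genes, again led by Pgam2 (2.85, SE 0.37), Slc16a3 (2.41, SE 0.27) and Pfkfb3 (1.72, SE 0.35). In the Bglap cluster 6 of 22 were higher and 4 lower than in the Smpd3 cluster, against 22% and 21.6%, led by Bpgm (3.67, SE 0.21), which makes 2,3-bisphosphoglycerate.

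On the TMM scale, genes of the citric acid cycle and respiratory chain were higher in odontoblast-like than in pulp-like cells for 11 of 32 and lower for 1. This compares with 23.2% and 23.8% of all genes (median 0.18), and Cycs, cytochrome c, led at 1.10 (SE 0.12). Their summed level did not rise, at 6570.6, 6019.8, 5663.4 and 5509.4 CPM in odontoblast-like and 6357, 6149.5, 5878.5 and 5546.7 in pulp-like cells. The median of all genes was -0.01 by TMM and -0.23 when scaled by library size alone. In the Smoc2 cluster 0 of 32 were higher and 21 lower than in the other pulp clusters, against 17% and 17.3% of all genes (median -0.41). Hypoxia-inducible genes that are not members went both ways in odontoblast-like cells, with 8 of 18 higher and 6 lower, where the same 23.2% and 23.8% apply. Of the stress genes 0 of 9 were higher and 5 lower there, and of the pentose phosphate genes 1 of 7 higher and 3 lower. Ndrg1 was higher by 2.03 (SE 0.49), while Angptl4 (-2.36, SE 0.19) and Plin2 (-2.07, SE 0.13), genes of lipid handling, were lower. In the Dmp1 cluster 6 of 17 hypoxia-inducible genes were higher and 3 lower than in the Smpd3 cluster, against 18.3% and 18.7% of all genes, with Ndrg1 at 4.15 (SE 0.21). In the Bglap cluster 9 of 17 were higher and 1 lower, against 22% and 21.6%. Their summed level in the replicate 2 libraries tested was 1318.1 and 1255.6 CPM in the Bglap and 1351.4 and 1184 in the Smpd3 cluster, so it did not rise in both. The median of all genes there was -0.03 by TMM and -0.48 when scaled by library size alone.

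In other classes the list was read against pulp-like cells. Endothelium-like cells had 5 of 23 genes higher and 14 lower, against 31.1% and 32.7% of all genes, with Pfkfb3 at 2.97 (SE 0.21) and the lactate carrier Slc16a1 at -2.87 (SE 0.17). Macrophage-like cells had 7 of 25 higher and 12 lower, against 34.2% and 36.4%, led by Hk3, the hexokinase of myeloid cells, at 8.21 (SE 0.37). Neutrophil-like cells had 10 of 22 higher and 4 lower, against 21.3% and 24.9%, and all 7 pentose phosphate genes tested were higher, with Taldo1 at 3.44 (SE 0.29), Pgd at 3.18 (SE 0.29) and Tkt at 2.87 (SE 0.28). Follicle-like cells had 4 of 25 higher and 10 lower, against 21.7% and 20.6%. Epithelium-like cells had 5 of 24 higher and 4 lower, against 20.1% and 22.8%, and B-like cells 5 of 21 and 11, against 27.7% and 38%.

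Across the means of the 12 classes, the genes whose log2 levels were most like those of Ldha were Fam241a, Arl6ip6, Mthfd2, Timeless and Impa2, with Pearson r of 0.815, 0.795, 0.774, 0.758 and 0.699. For Ldhb they were Vcan (0.943), Magi2 (0.940), Dok6 (0.924), Gsta4 (0.920) and Col4a5 (0.908), among 9678 genes. Vcan was on the pulp marker list used to name the classes, so its rank is partly built in. Ldha and Ldhb themselves had an r of -0.08. The 12 points share libraries and depth, so these values describe the patterns only.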

How the data were processed

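The deposited matrices hold raw UMI counts, which the authors obtained with Cell Ranger 6.0.2 on mm10 (GRCm38) and left unnormalized. Barcodes were kept from 1000 detected genes upwards if mitochondrial UMIs did not exceed 10% and hemoglobin UMIs 3%. Seurat 5.3.0 integrated the libraries and clustered the cells at resolution 1 without the members; clusters were named from marker lists. Scrublet (scanpy 1.11.5) marked 0.0874% to 0.577% of cells, a share at which the caller cannot be relied on. No cells were removed as doublets, except in an alternative without the highest-scoring share of 0.05. Free RNA was not removed. UMIs were summed per library and class (20 cells or more) and tested in edgeR 4.0.16 (TMM, its low-count filter, quasi-likelihood test, Benjamini-Hochberg adjustment over all genes tested, threshold 0.05), with library as a factor between classes. DESeq2 1.42.0, other scalings, filters, thinning to 2000 UMIs, left-out libraries and other cell selections were alternatives. The code was tested on simulated data. Log levels used a pseudocount of 1. All 10 members were named, and of each other list the 3 genes called with the largest log2 difference. The members, lists and classes were chosen with earlier results of these data known; 6 comparisons between clusters were added after the data had been seen. Coordinates follow GENCODE on GRCm38.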

Additional observations from a re-analysis of the deposited data

How the results depend on the processing

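Of 2916 values recomputed under alternatives, 2539 kept their direction and side of the threshold, 120 lost a call, 49 gained one, 200 moved and 8 reversed. The cause was not tested except where stated. Reversed were Eno1 between genotypes in pulp-like cells (-2.10 without Din-KO replicate 2), Eno1 (-0.12) and Tpi1 (-0.78) in neutrophil-like cells scaled by library size alone, Ldha and Pgk1 in B-like cells thinned to 2000 UMIs (-0.46 and -0.13) or without cells holding Mki67 or Top2a (-0.65 and -0.18), and Ldhb in the cluster picked by Cldn10 and Enpp2 at resolution 0.5 (0.42), where the pair picked another cluster. Eno1 between genotypes was called at 2.49 without WT replicate 2. Scaled by library size alone 8 members were called in macrophage-like cells and 9 between the Amelx and Shh clusters. With the replicate block 1 member was called between genotypes in mesenchyme-like cells (Ldhb, -0.50, adjusted p = 0.0389). Same-numbered libraries deviated together (r = 0.884 over 8971 genes), but the labels share only a number, and the replicate block raised all genes called there from 0 to 193. Without the library factor the members called were 2 in follicle-like cells, 3 in the Smoc2, 1 in the Pdlim3 (picked by Cldn10 and Enpp2), 0 in the Angpt4 and 0 in the Vcan cluster, 3 in the Dmp1 cluster, 3 in odontoblast-like cells against the Smoc2 cluster, 2 in the Smoc2 against the Vcan cluster and 1 between the epithelial clusters. DESeq2 called 1 in the Pdlim3, 0 in the Angpt4 and 3 in the Dmp1 cluster. Thinned to 2000 UMIs 4 were called in neutrophil-like cells and 1 in the Angpt4 cluster, and the ratio difference between odontoblast-like and pulp-like cells was 2.69. Resolution 0.5 gave 3 in the Smoc2 and 3 in the Vcan cluster. With 1 library left out, members called ranged from 0 to 1 between genotypes in pulp-like and macrophage-like cells, from 2 to 7 in the Dmp1 cluster and from 2 to 4 between the epithelial clusters. All genes called between genotypes in pulp-like cells were 2, and 172 without WT replicate 2.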
